A study of Kluyveromyces lactis with 12 samples.

Results

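The response of wild-type Kluyveromyces lactis, a budding yeast, to tert-butyl hydroperoxide (t-BOOH) was read from the wild-type channel of 2-colour arrays. The 8 channels used were the wild-type channels of the 4 t-BOOH arrays and of the 4 untreated arrays, chosen by the strain label of each dye, out of 24 channels on 12 arrays. Both groups were the strain labelled Klwt, grown exponentially in rich YPD medium. One was left untreated and the other was exposed to 0.25 mM t-BOOH for 30 min, and the labels describe 4 biological experiments per condition. The other channel of every array carried the strain labelled Klyap8∆, and 4 further arrays carried both strains after sodium arsenite, at a dose on which the labels conflict. The labels name no strain background, and they give 1 deletion strain with no statement on independent clones. No array set treated against untreated RNA directly. All untreated and all arsenite arrays lay on slide 1 and all t-BOOH arrays on slide 2. Slide and condition therefore cannot be told apart in any comparison below that involves t-BOOH. Arsenite against untreated lies within slide 1. Whether the 4 experiments used separate cultures is not stated, and p-values measure only the spread between these samples.

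t-BOOH is an organic peroxide that enters cells and oxidises thiols and lipids. In yeasts, peroxides are removed by peroxidases of the heme, glutathione and thioredoxin kinds and by catalases, and the oxidised thiols are reduced again with electrons from NADPH. Stressed yeast cells commonly slow their growth and lower the genes for making ribosomes. Gene symbols are those of Saccharomyces cerevisiae counterparts, and each role named below is known from that yeast. Some genes are named for the role they play in a list, chosen after their values were seen. Genes without a symbol keep their identifier and are given no role.

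The wild-type channel had a median spot intensity of 2309 to 4890.25 on the untreated arrays and 684.5 to 5655.5 on the t-BOOH arrays, over background medians of 37.5 at most. Between 97.4% and 99.8% of genes were well above background. The wild type was in Cy3 on 2 and in Cy5 on 2 arrays of each group. Untreated array 4 stood apart, with a mean correlation of 0.935 with the other untreated arrays against 0.970 to 0.974. So did t-BOOH array 1, at 0.909 against 0.949 to 0.958, the dimmest array. Results that rest on these arrays are given below also without both. ARR1 (KLLA0E00265g), whose other name YAP8 is that in the label of the deletion strain, was lower in the deletion channel on all 8 arrays, by a log2 ratio between -0.61 on untreated array 4 and -1.81 on t-BOOH array 4. In the wild type its level was 11.84 ± 0.10 untreated and 12.45 ± 0.33 after t-BOOH (log2, SD, n = 4 each), a difference that was not called (0.61, SE 0.22, limma adjusted p = 0.059).

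Levels are log2 intensities made comparable between arrays by normalization, which gives every channel the same overall distribution on average, so a change in total RNA per cell would not be seen. A log2 change is the t-BOOH mean minus the untreated mean, and its standard error (SE) comes from limma. Of 5059 genes tested, 1657 (32.8%) were called at an adjusted p under 0.05, of which 892 (17.6%) were higher and 765 (15.1%) lower after t-BOOH. At least 2-fold changes were called for 529 higher and 559 lower genes. Among changes of at least 4-fold the balance shifted to lower genes, with 94 higher and 183 lower. The 4 t-BOOH and the 4 untreated levels did not overlap for 1832 genes (36.2%), of which 1488 were called. The median change over all genes was 0.07. In the fit called here without normalization between arrays, each channel was only centred on its median. There the median change over all genes was 0.175, and list medians below are to be read against these values. With both arrays that stood apart left out, 2605 genes were called, and without untreated array 2 the higher calls were 567.

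**Figure D1:**
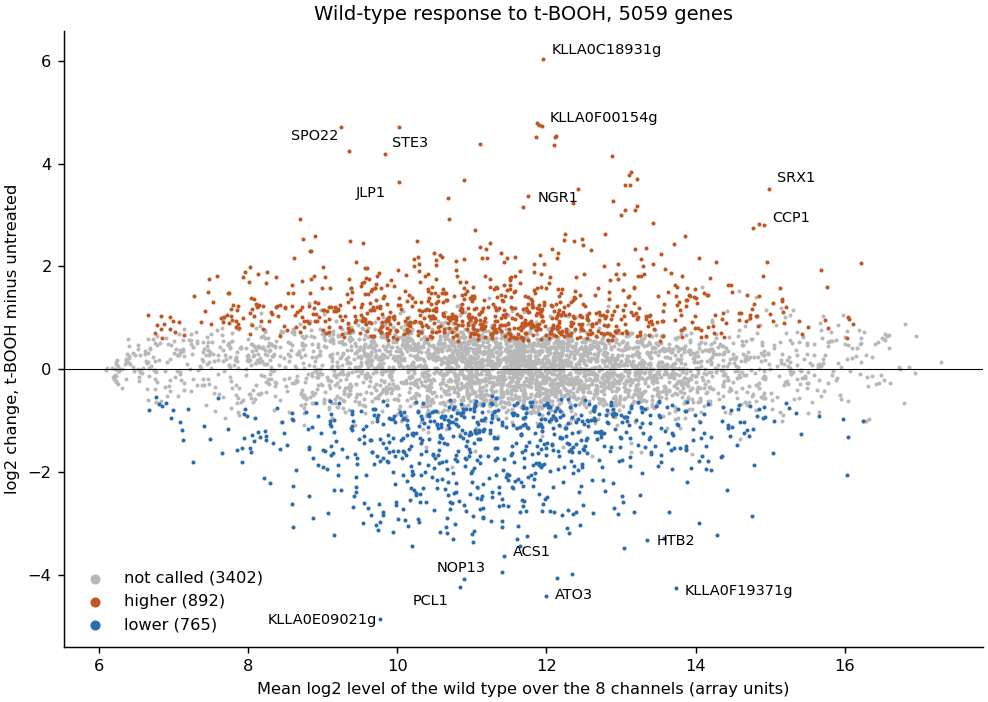
Change of each of the 5059 genes in the wild type (t-BOOH minus untreated, log2) against its mean log2 level over the 8 channels. Called genes are coloured, 892 higher and 765 lower, and the lower side reaches -4.85 while the upper side reaches 6.03.

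Among peroxide-removing enzymes, sulfiredoxin, cytochrome c peroxidase, a glutathione peroxidase and both catalases rose. Of 9 genes of this kind measured, 5 were called higher (55.6% against 17.6% of all genes) and none lower, and the median change was 1.05. SRX1 (KLLA0F25938g), sulfiredoxin, which repairs over-oxidised peroxiredoxins, had levels of 13.68, 13.39, 13.32 and 12.56 on untreated arrays 1 to 4 and 16.81, 16.84, 16.37 and 16.94 on t-BOOH arrays 1 to 4. The lowest t-BOOH level lay more than 2 log2 units above the highest untreated level. SRX1 rose 11.4-fold (log2 change 3.50, SE 0.28, adjusted p = 4.36e-05). CCP1 (KLLA0B07557g), cytochrome c peroxidase of mitochondria, stood at 13.37, 13.23, 13.79 and 13.65 untreated and at 16.78, 16.53, 15.88 and 16.04 after t-BOOH. It rose 6.94-fold (log2 change 2.80, SE 0.26, adjusted p = 8.17e-05), again with no overlap. GPX2 (KLLA0F06732g), a glutathione peroxidase, rose from 14.72 ± 0.36 to 16.64 ± 0.43 (SD, n = 4 each), a 3.81-fold change (SE of the log2 change 0.28, adjusted p = 9.13e-04).

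Both catalases were called higher. CTT1, the cytosolic catalase, had levels of 13.31, 12.51, 14.05 and 13.20 untreated and 14.90, 14.75, 14.40 and 14.65 after t-BOOH. The groups are separate by a small margin, since untreated array 3 reached 14.05. Its log2 change was 1.41 (SE 0.32, adjusted p = 0.00842). CTA1, the peroxisomal catalase, went from 11.92 ± 0.36 to 12.97 ± 0.30, a log2 change of 1.05 (SE 0.24, adjusted p = 0.00846). The peroxiredoxin genes were not called. TSA2, a cytosolic peroxiredoxin, had untreated levels of 16.34, 16.27, 16.17 and 16.04 and t-BOOH levels of 17.57, 16.92, 16.08 and 16.65. Array 3 lay inside the untreated range and the other t-BOOH arrays above it, with array 1 highest. Its log2 change was 0.60 (SE 0.30, adjusted p = 0.156), was 0.16 without both arrays that stood apart, and was called (0.90, adjusted p = 0.0233) without t-BOOH array 3. Values for AHP1 (0.30, adjusted p = 0.374), PRX1 (0.33, 0.248) and DOT5 (0.92, 0.139) were within the spread of the arrays. DOT5 ran from 9.19 to 11.37 on the t-BOOH arrays.

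**Figure D2:**
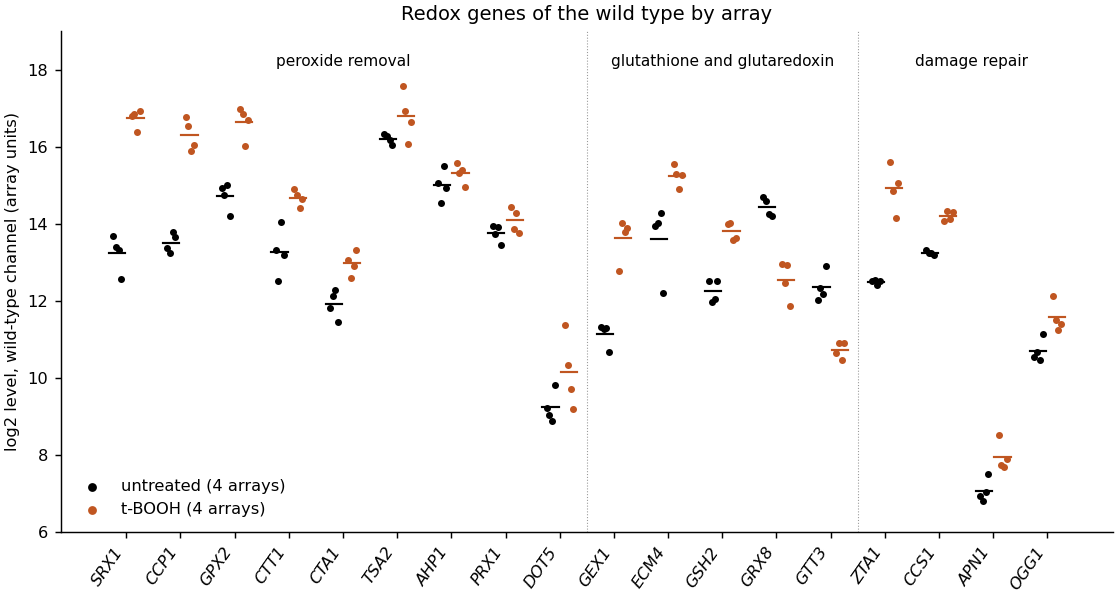
Log2 level of 18 redox genes in the wild-type channel of each untreated (black) and t-BOOH (orange) array, with short lines at the means of 4. SRX1, CCP1, GPX2 and ZTA1 are separate by a wide gap, TSA2, AHP1, PRX1 and DOT5 overlap, and GRX8 and GTT3 are lower after t-BOOH.

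Glutathione synthesis and export rose while parts of the glutaredoxin and transferase set fell. Of 20 thioredoxin, glutaredoxin and glutathione genes, 7 were called higher (35.0% against 17.6% of all genes) and 4 lower, with a median change of 0.23 that moved to 0.05 without both arrays that stood apart. GEX1, a glutathione exchanger of the vacuole and cell surface, had levels of 11.31, 11.26, 11.28 and 10.68 untreated and 12.76, 14.03, 13.79 and 13.90 after t-BOOH. It rose 5.61-fold (log2 change 2.49, SE 0.31, adjusted p = 3.58e-04), and its lowest t-BOOH level, on array 1, was still above every untreated level. GSH2, glutathione synthetase, went from 12.26 ± 0.28 to 13.81 ± 0.23 (log2 change 1.55, SE 0.21, adjusted p = 5.73e-04). GSH1, which makes the dipeptide that GSH2 extends, had a log2 change of 1.04 (SE 0.29, adjusted p = 0.0211). YCF1, the vacuolar pump for glutathione conjugates, changed by 1.52 (SE 0.20), ECM38, which degrades glutathione, by 1.41 (SE 0.26) and the glutaredoxin GRX1 by 1.09 (SE 0.24). ECM4, a glutathione transferase, was 13.95, 14.01, 14.29 and 12.20 untreated, with array 4 far below the rest, and 15.54, 15.28, 14.90 and 15.26 after t-BOOH. Its log2 change of 1.63 (SE 0.40, adjusted p = 0.0124) was 1.03 without both arrays that stood apart.

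The glutaredoxin GRX8 fell. Its levels were 14.70, 14.58, 14.26 and 14.20 untreated and 12.95, 12.45, 12.92 and 11.87 after t-BOOH, with a log2 change of -1.89 (SE 0.26, adjusted p = 6.15e-04). GTT3, named after a glutathione transferase, went from 12.35 ± 0.39 to 10.72 ± 0.22 (log2 change -1.63, SE 0.23, adjusted p = 7.45e-04). URE2 (-0.87) and OPT1 (-0.78) were the other called lower members. Thioredoxin TRX2 had a change of 1.06 that was not called (SE 0.38, adjusted p = 0.0573), and glutathione reductase GLR1 one of 0.18 (SE 0.32, adjusted p = 0.691). The count of lower members ran from 2 to 5 over the fits that each left out 1 array, with 2 on leaving out untreated array 1 or 3 or t-BOOH array 2 or 4.

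The oxidant damage list held superoxide dismutases and reductases beside repair enzymes, so its calls are not all of repair genes. Of its 12 genes, 5 were called higher (41.7% against 17.6%) and none lower (median 0.44). Without both arrays that stood apart the median was 0.17, with 5 called higher and 1 lower. It was 0.84 without normalization between arrays. ZTA1, a quinone reductase, had nearly equal untreated levels of 12.52, 12.53, 12.42 and 12.51, and 15.61, 14.86, 14.14 and 15.07 after t-BOOH. It rose 5.38-fold (log2 change 2.43, SE 0.30, adjusted p = 3.48e-04). CCS1, the copper chaperone of superoxide dismutase, went from 13.25 ± 0.06 to 14.20 ± 0.13 (log2 change 0.96, SE 0.18, adjusted p = 0.00325). SOD1 itself, the copper and zinc superoxide dismutase, was called at 0.97 (SE 0.31, adjusted p = 0.0378) although its groups overlapped, with 14.95 to 15.52 untreated and 15.32, 16.69, 16.49 and 16.36 on t-BOOH arrays 1 to 4. Of the base-excision enzymes, APN1 had a change of 0.88 (SE 0.26, adjusted p = 0.0284) and OGG1 one of 0.86 (SE 0.26, adjusted p = 0.0304). Both calls were lost without untreated array 1, 2 or 3 or t-BOOH array 4, and that of OGG1 also without t-BOOH array 2, with lowest values of 0.65 and 0.64. The count of 5 was 2 without untreated array 1 or 3 or t-BOOH array 4, and 3 without untreated array 2 or t-BOOH array 2. The methionine sulfoxide reductases MXR1 (0.09) and MXR2 (0.14), the mitochondrial superoxide dismutase SOD2 (-0.17) and the old yellow enzyme OYE2 (0.41) were not called.

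Calls among the pentose phosphate and NADPH genes were few, and the share called lower was near that of all genes. Of 13 measured, 1 was called higher and 2 lower, shares of 7.7% and 15.4% against 17.6% and 15.1% of all genes. ZWF1, the entry enzyme of the pathway, had a change of 0.13 and GND1 one of -0.11, neither called. The called members were SOL1 (0.66), a phosphogluconolactonase homologue, RKI1 (-1.03), a ribose phosphate isomerase, and MAE1 (-0.92), the malic enzyme. The SOL1 call was lost without untreated array 2, 3 or 4 or t-BOOH array 2 or 4, and the RKI1 call without untreated array 1 or 2 or t-BOOH array 2 or 4, the values closest to 0 being 0.55 and -0.73. The list median of -0.11 was 0.22 without normalization between arrays, so no direction is given for the list.

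Sulfur genes were called in both directions. Of 34 measured, 8 were higher and 9 lower, shares of 23.5% and 26.5% against 17.6% and 15.1% of all genes (median -0.09, and 0.16 without normalization between arrays). JLP1 (KLLA0F26158g), a dioxygenase that frees sulfite from sulfonates, stood at 8.12, 8.13, 8.32 and 8.26 untreated and at 12.17, 11.59, 11.40 and 12.21 after t-BOOH. It rose 12.4-fold (log2 change 3.63, SE 0.24, adjusted p = 2.48e-05), with untreated levels that hardly varied. Of the sulfate reduction genes, MET3 (-1.56), MET14 (-1.69) and MET10 (-0.83) were called lower, the last 2 with overlapping groups. MET16, of the same steps, was not called (-0.6, adjusted p = 0.126). MET22 (-1.13) and MET17 (-1.33) were called lower too. So was MET1, which makes the siroheme of sulfite reductase, from 13.32 ± 0.63 to 10.56 ± 0.36 (log2 change -2.76, SE 0.28, adjusted p = 1.27e-04). MET6, the methionine synthase, was 13.60, 13.77, 14.06 and 13.84 untreated and 11.07, 11.05, 11.44 and 11.12 after t-BOOH, a 6.27-fold fall (SE of the log2 change 0.19, adjusted p = 3.54e-05). Called higher were CYS3 (1.0) and STR2 (0.99), of the interconversion of cysteine and homocysteine, HOM3 (1.44) and HOM2 (0.68), of homoserine synthesis, MET8 (0.80), of siroheme synthesis like MET1, MET13 (0.65), of folate metabolism, and the methionine permease MUP3 (1.10). The permease MUP1 (-1.23) and MET2 (-1.81), which acetylates homoserine, were called lower. CYS4, which takes up homocysteine, was not called (0.62, adjusted p = 0.0829). The higher calls were 5 without untreated array 2 or 3 or t-BOOH array 2.

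Ribosome biogenesis genes fell more widely than any other of the 26 lists examined. Of 153 measured, 135 were called lower and none higher, 132 of them by at least 2-fold and 77 by at least 4-fold. The median change was -2.02, a 4.06-fold fall, against 0.07 for all genes, and the share called lower was 88.2% against 15.1%. The median of the list relative to the untreated mean was -1.74, -2.26, -1.46 and -2.33 on t-BOOH arrays 1 to 4, while the untreated arrays ran from -0.28 to 0.36. Leaving out 1 array gave 127 to 142 lower genes, with 1 gene higher without t-BOOH array 1, and leaving out both arrays that stood apart gave 142. NOP13 (KLLA0D08206g), a nucleolar protein of pre-ribosomes, had levels of 13.40, 13.39, 13.38 and 13.34 untreated and 9.79, 8.95, 9.82 and 9.14 after t-BOOH. Its untreated levels were nearly equal, and it fell 15.5-fold (log2 change -3.95, SE 0.21, adjusted p = 2.04e-05). SOF1, of the small-subunit processome, was 11.81, 12.19, 11.95 and 11.76 untreated and 7.98, 8.75, 8.67 and 8.52 after t-BOOH (log2 change -3.45, SE 0.23, adjusted p = 2.48e-05). The small-subunit factors ENP1 (-3.36, SE 0.29) and NOP6 (-3.31, SE 0.20) changed alike, without overlap of the groups. ALB1, a shuttling factor of the large subunit that is among the 12 lowest genes with a symbol, fell 15.7-fold (-3.97, SE 0.32). DBP9, a helicase of the large subunit, was 12.63, 12.70, 12.65 and 11.62 untreated and 7.40, 9.40, 10.26 and 9.36 after t-BOOH. Array 1 was the lowest of these and was not well above background there, and the log2 change of -3.29 had an SE of 0.55 (adjusted p = 0.00198). Of the 18 members not called, RRN6, of the RNA polymerase I machinery, was the only 1 with a change above 0 (0.56), and MTR4 (-0.55), NOP1 (-1.05) and CBF5 (-1.24) were below 0.

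Cytosolic ribosomal protein genes did not share that fall. Of 58 measured, 6 were called higher and 1 lower, and 56 had a change above 0 (median 0.56). The called lower member, RPP1 (-1.17, SE 0.28), came in by its name and is a subunit of the RNA-processing enzyme RNase P in S. cerevisiae, not a ribosomal protein. Without it 57 members remained, 6 higher and none lower, with a median of 0.57. The higher members were RPS11B (1.33), RPL28 (1.22), RPS13 (1.07), RPP1A (1.01), RPS2 (0.98) and RPL35A (0.88). The share called higher, 10.3%, was below the 17.6% of all genes, and the groups overlapped for 56 of the 58. The array medians relative to the untreated mean were -0.22, -0.20, -0.40 and 0.81 on untreated arrays 1 to 4 and 1.13, 0.59, 0.48 and 0.41 on t-BOOH arrays 1 to 4. Untreated array 4 thus lay above t-BOOH arrays 2 to 4, and t-BOOH array 1 was highest. Without untreated array 4 the higher calls were 32, without untreated array 1, 2 or 3 or t-BOOH array 2 they were 0, with t-BOOH array 1 or 3 left out they were 2, and without t-BOOH array 4 there was 1. Without both arrays that stood apart 40 were called higher and the median was 0.74.

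**Figure D3:**
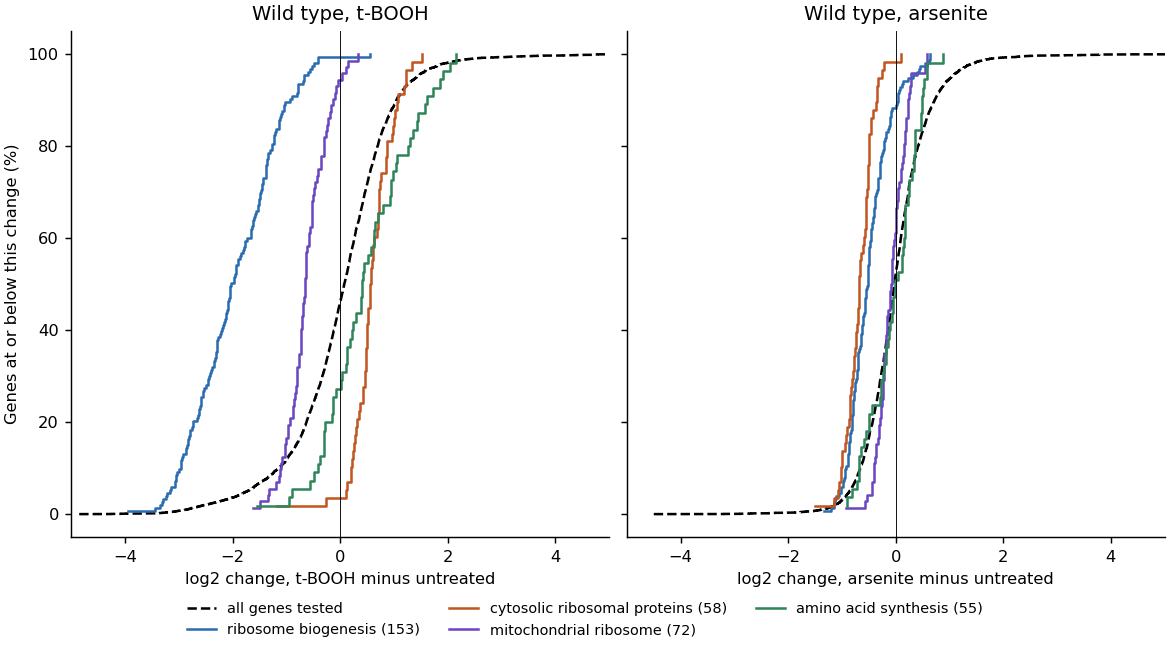
Cumulative share of genes (%) against the log2 change of the wild type for all genes and 4 lists, after t-BOOH (left) and after arsenite (right), both against the same untreated channels. After t-BOOH the ribosome biogenesis curve lies at a median of -2.02 and the ribosomal protein curve at 0.56, and after arsenite their medians are -0.53 and -0.68.

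Some mitochondrial ribosome genes fell and some amino acid synthesis genes rose. Of 72 mitochondrial ribosome genes, 20 were called lower (27.8% against 15.1% of all genes) and none higher (median -0.65). The median was -0.43 without both arrays that stood apart. RSM22, linked to the small subunit, was 11.81, 11.83, 11.82 and 11.68 untreated and 9.58, 10.16, 10.76 and 10.19 after t-BOOH (log2 change -1.62, SE 0.26, adjusted p = 0.00153). MRPL20 (-1.34, SE 0.24) and MRPL6 (-1.32, SE 0.32), of the large subunit, were also called. The count was lowest, at 8, without untreated array 2, was 9 without t-BOOH array 4, 11 without t-BOOH array 2 and 13 without untreated array 3, and reached 32 without both arrays that stood apart.

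Of 55 amino acid synthesis genes, 21 were called higher and 2 lower (median 0.41), a share of 38.2% against 17.6%. TRP4, of tryptophan synthesis, had levels of 8.98, 8.70, 8.85 and 10.05 untreated and 11.68, 11.11, 11.18 and 11.20 after t-BOOH (log2 change 2.15, SE 0.31, adjusted p = 8.31e-04). Untreated array 4 was the highest of its group and still below every t-BOOH array. The other tryptophan genes TRP1 (1.86), TRP2 (1.57), TRP3 (1.43) and TRP5 (1.06) were called higher too, as were ARG7 (1.73), ARG3 (1.61) and ARG8 (1.29) of arginine synthesis. GLY1, threonine aldolase, went from 10.95 ± 0.26 to 12.99 ± 0.37 (2.04, SE 0.24) and ASN1, asparagine synthetase, from 10.69 ± 0.88 to 12.59 ± 0.42 (1.91, SE 0.42, adjusted p = 0.00776). GCN4, the activator of many such genes, had a change of 0.04. The called lower members were GLT1 (-1.54), glutamate synthase, and GDH3 (-0.95), a glutamate dehydrogenase.

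Translation factors and tRNA synthetases had few calls, 4 of 29 and 4 of 19, against 32.8% of all genes. GCN3, of a guanine exchange factor of initiation, was called at -1.09 (SE 0.26). The calls of TIF35 (-0.84), CAM1 (0.90), TYS1 (0.76), VAS1 (-0.73) and ALA1 (0.55) were each lost without untreated array 1, 2 or 3 or t-BOOH array 2 or 4, and that of ALA1 also without t-BOOH array 3. In those fits the smallest changes were -0.70, 0.64, 0.66, -0.61 and 0.46. The synthetases called higher were 9 without untreated array 4, and 6 translation factors and 4 synthetases were called lower without t-BOOH array 3. Without both arrays that stood apart, TIF35 stood at -0.49 and CAM1 at 0.57.

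Most glycolysis and gluconeogenesis genes fell. Of 18 measured, 12 were called lower (66.7% against 15.1% of all genes) and none higher, and the median was -1.01. ACS1 (KLLA0A03333g), acetyl-CoA synthetase, had levels of 13.35, 13.94, 13.59 and 12.13 untreated and 10.41, 9.39, 8.96 and 9.70 after t-BOOH. It fell 12.4-fold (log2 change -3.64, SE 0.39, adjusted p = 1.75e-04). PCK1, the first committed enzyme of gluconeogenesis, was 13.73, 14.68, 13.69 and 12.98 untreated and 10.83, 11.09, 10.67 and 11.20 after t-BOOH (-2.82, SE 0.33, adjusted p = 2.88e-04). TYE7, a regulator of glycolytic genes, went from 15.03 ± 0.26 to 12.26 ± 0.23 (-2.77, SE 0.22, adjusted p = 4.39e-05). Enzymes of both directions were among the called members, with the phosphofructokinase subunits PFK1 (-2.58) and PFK2 (-1.86) beside fructose bisphosphatase FBP1 (-1.68). MDH2, the cytosolic malate dehydrogenase, fell with them, from 14.48 ± 0.45 to 12.03 ± 0.09 (-2.45, SE 0.24, adjusted p = 1.08e-04). The count of 12 was 6 without untreated array 2 and 7 without untreated array 1.

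Of 46 respiration genes, 10 were called lower (21.7% against 15.1%) and none higher, and the median of -0.29 was 0.14 without normalization between arrays. The largest changes were those of QCR2 (-1.34, SE 0.21), QCR8 (-1.25, SE 0.23) and QCR9 (-1.21, SE 0.26), of the cytochrome bc1 complex, followed by aconitase ACO1 (-1.20) and the succinate dehydrogenase subunit SDH3 (-1.19). The cytochrome oxidase subunits COX4 (-0.79) and COX6 (-0.83) were called lower too. None of the ATP synthase genes measured was called. Of 6 stress carbohydrate genes 1 was called, TPS2 (-1.17) of trehalose synthesis. This share of 16.7% called lower is near the 15.1% of all genes. That list was not separate between groups, since untreated array 4 had a median of -1.07 among t-BOOH medians of -1.15 to -0.65, and without that array 4 of the 6 were called lower. No member was called lower without untreated array 1, 2 or 3 or t-BOOH array 1, 2 or 3.

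In protein quality control, some ubiquitin, proteasome and autophagy genes rose, and few chaperones were called. Of 35 ubiquitin genes 10 were called higher and none lower (28.6% against 17.6%). CUZ1, a partner of the proteasome and of Cdc48, was 12.23, 11.89, 12.08 and 12.42 untreated and 14.51, 14.14, 15.38 and 14.01 after t-BOOH (2.35, SE 0.30, adjusted p = 4.37e-04). The deubiquitinase UBP12 (1.58, SE 0.22) and the ubiquitin ligase HUL5 (1.48, SE 0.21) rose also. The count was 6 without untreated array 2. Of 43 proteasome genes 11 were called higher (25.6% against 17.6%) and 1, RPN13 (-0.81), lower (median 0.42). NAS2, a proteasome assembly chaperone, went from 10.68 ± 0.32 to 12.49 ± 0.31 (1.82, SE 0.25, adjusted p = 6.41e-04). PUP1, a core subunit, changed by 1.12 (SE 0.21) and HSM3, another assembly chaperone, by 0.99 (SE 0.21). The 11 higher calls were 4 without untreated array 2, 5 without t-BOOH array 2, 7 without untreated array 1 or 3, and 18 without both arrays that stood apart.

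Of 28 autophagy and vacuole genes 9 were called higher (32.1% against 17.6%) and none lower (median 0.59). Without both arrays that stood apart the median was 0.37, with 10 called higher and 2 lower. ATG29, part of the complex that starts the autophagosome, had levels of 8.13, 8.24, 8.01 and 8.10 untreated and 11.17, 10.52, 10.01 and 10.73 after t-BOOH. It rose 5.60-fold (log2 change 2.49, SE 0.26, adjusted p = 1.62e-04). ATG14, of the lipid kinase complex, went from 10.53 ± 0.06 to 12.13 ± 0.30 (1.60, SE 0.20) and ATG2, a lipid transfer protein, from 11.21 ± 0.62 to 12.78 ± 0.14 (1.57, SE 0.27). The vacuolar proteases PEP4 (0.24) and PRC1 (-0.32) were not called. The count was 6 without untreated array 2 or t-BOOH array 2.

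Of 40 chaperone and heat shock genes 2 were called higher (5.0% against 17.6%), APJ1 (1.09, SE 0.19, adjusted p = 0.00257) and AHA1 (1.27), and 1 lower, JEM1 (-1.13), with a median of 0.02. HSP104 (-0.84), HSP78 (-0.43), HSP82 (-0.04), HSP26 (0.36) and HSP42 (0.77) were not called. The array medians were -0.22, -0.11, 0.46 and -0.19 on t-BOOH arrays 1 to 4, so that array 3 stood above the other t-BOOH arrays. The higher calls were 1 without untreated array 1, 2 or 3 or t-BOOH array 3, 4 without t-BOOH array 1 and 6 without untreated array 4. The lower calls were 2 without untreated array 1, 3 without t-BOOH array 3, 4 without untreated array 4 and 0 without t-BOOH array 4. Without both arrays that stood apart 10 were higher and 4 lower.

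**Figure D4:**
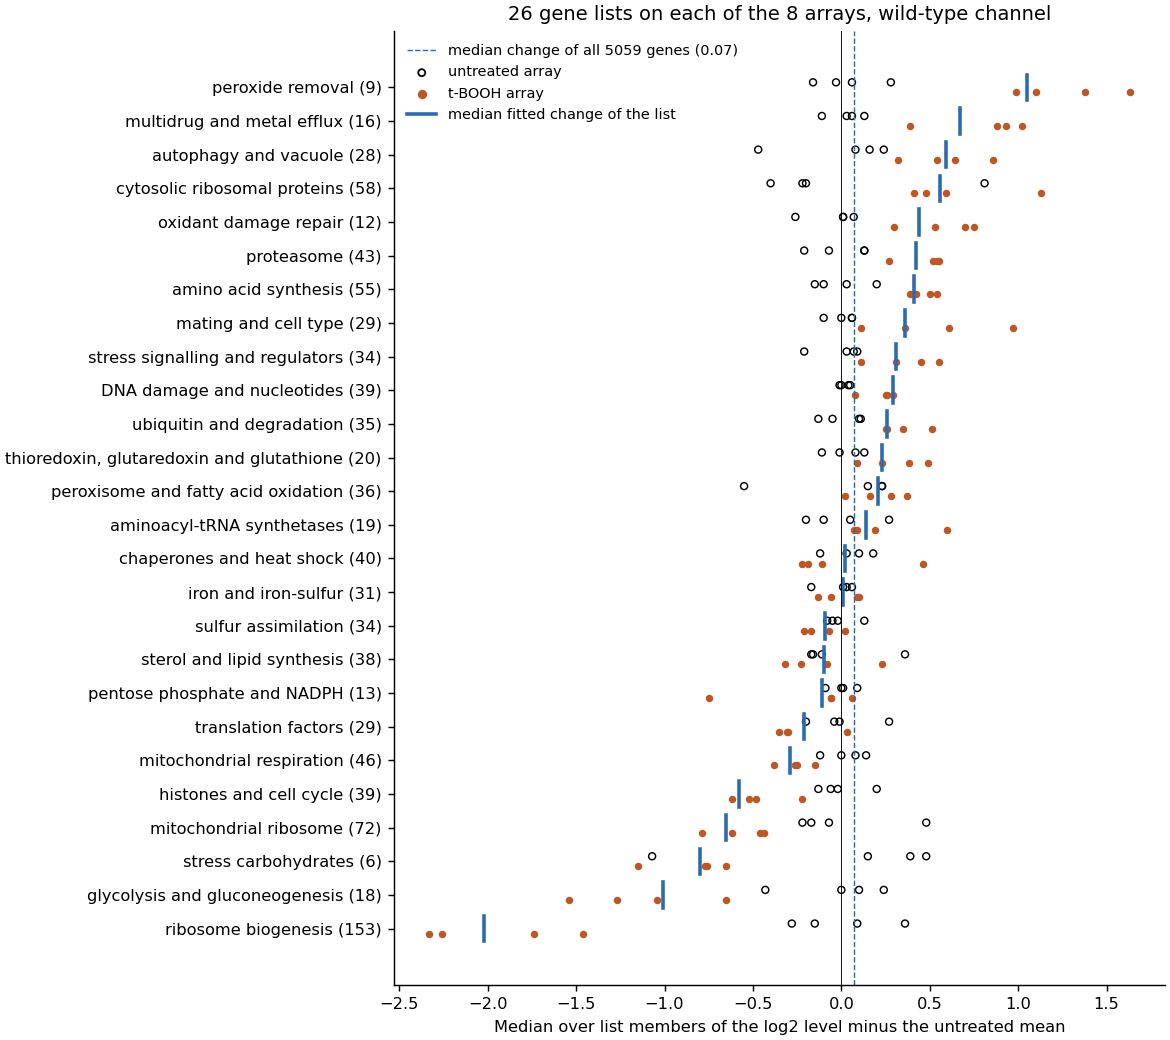
Median of each of the 26 gene lists on each untreated (open circle) and t-BOOH (orange) array, as the log2 level minus the untreated mean, with the list's median fitted change as a blue bar and the number of genes in brackets. Ribosome biogenesis lies at -2.02 and peroxide removal at 1.05, and untreated array 4 is apart from its group in lists such as stress carbohydrates (-1.07) and ribosomal proteins (0.81).

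Several histone and cell cycle genes fell. Of 39 measured 16 were called lower (41.0% against 15.1% of all genes) and 1, RFA2 (0.98), higher (median -0.58). The median was -0.37 without both arrays that stood apart. HTB2 (KLLA0E17337g), a histone gene, had levels of 14.91, 14.84, 15.11 and 15.17 untreated and 11.91, 11.59, 12.19 and 11.09 after t-BOOH. It fell 9.95-fold (log2 change -3.32, SE 0.24, adjusted p = 3.54e-05). The histone gene HHF1 fell from 14.29 ± 0.18 to 12.27 ± 0.24 (-2.01, SE 0.20) and MCM3, of the replicative helicase, from 13.03 ± 0.22 to 11.06 ± 0.28 (-1.97, SE 0.22). PCL1 (KLLA0E13223g), a cyclin of the kinase Pho85 in early cycle, was 12.87, 12.75, 12.89 and 13.30 untreated and 8.88, 8.72, 8.80 and 8.47 after t-BOOH, an 18.8-fold fall (-4.23, SE 0.21, adjusted p = 2.04e-05). SWE1, the kinase that holds back entry into mitosis, went the other way, from 10.74 ± 0.53 to 13.97 ± 0.16 (3.23, SE 0.27, adjusted p = 5.34e-05). Its lowest t-BOOH level was above its highest untreated level. The higher calls of the list were 7 without untreated array 4 and 3 without t-BOOH array 3.

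In the DNA damage list 10 of 39 genes were called higher and 6 lower, shares of 25.6% and 15.4% against 17.6% and 15.1% of all genes (median 0.29). The median was 0.13 without both arrays that stood apart. RAD5, of damage tolerance, rose from 11.13 ± 0.18 to 12.73 ± 0.23 (1.61, SE 0.21) and the checkpoint kinase DUN1 from 9.63 ± 0.34 to 11.19 ± 0.11 (1.56, SE 0.22). RAD53 (1.15), MEC1 (0.95), RAD52 (0.81) and RAD54 (1.17) were called higher too. The ribonucleotide reductase genes RNR3 (-0.76) and RNR4 (-0.95) were called lower. Without t-BOOH array 2 the higher calls were 6. The lower calls ran from 1, without untreated array 3 or t-BOOH array 4, over 2, without untreated array 1 or 2 or t-BOOH array 2, to 7, without untreated array 4.

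Of 38 sterol and lipid genes 7 were called higher and 9 lower, shares of 18.4% and 23.7% against 17.6% and 15.1% of all genes, the higher share near the background. ERG3, a sterol desaturase, was 12.69, 13.07, 13.15 and 14.08 untreated and 9.96, 11.14, 10.68 and 11.12 after t-BOOH (-2.52, SE 0.32, adjusted p = 4.24e-04). UPC2, the activator of sterol genes, went from 12.53 ± 0.12 to 10.47 ± 0.44 (-2.06, SE 0.22, adjusted p = 1.68e-04). ERG1, squalene epoxidase, had a highest untreated level of 14.78 on array 4 against 12.59 to 12.95 on the others, and its change of -2.19 (SE 0.52) was -1.27 without both arrays that stood apart. Against these, the phospholipid genes INO1 (1.97), CHO1 (1.27) and OPI3 (1.27) and the sterol isomerase ERG2 (1.86) were called higher. Without untreated array 2 the higher calls were 4. The list median of -0.10 was 0.14 without normalization between arrays.

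Of 36 peroxisome and fatty acid oxidation genes 8 were called higher and 3 lower, 22.2% and 8.3% against 17.6% and 15.1% (median 0.21). TES1, an acyl-CoA thioesterase, went from 10.91 ± 0.25 to 13.25 ± 0.27 (2.35, SE 0.23, adjusted p = 9.78e-05). INP1, for the retention of peroxisomes, went from 8.70 ± 0.52 to 10.06 ± 0.34 (1.36, SE 0.30), and the thiolase POT1 changed by 2.19 with overlapping groups (SE 0.69, adjusted p = 0.0373). The higher calls were 5 without untreated array 2 or 3 or t-BOOH array 4 and 4 without t-BOOH array 2. The lower calls were 1 without untreated array 1, 2 or 3 or t-BOOH array 2 or 3, and 5 without untreated array 4. The median was -0.18 in the Cy3 channels alone and -0.01 without both arrays that stood apart.

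Several membrane pumps rose. Of 16 multidrug and metal efflux genes 8 were called higher (all genes 17.6%) and 1, the weak-acid pump PDR12 (-1.01), lower. RSB1, which moves sphingoid bases across the membrane, was 12.36, 12.38, 12.30 and 12.65 untreated and 14.79, 14.78, 14.23 and 14.84 after t-BOOH (2.23, SE 0.20, adjusted p = 7.40e-05). The polyamine exporter TPO1 rose from 14.96 ± 0.15 to 16.57 ± 0.39 (1.61, SE 0.23). ARR2 (KLLA0E00243g), named after the arsenate reductase, rose from 9.34 ± 0.08 to 11.25 ± 0.30 (1.91, SE 0.20, adjusted p = 1.62e-04). The aquaglyceroporin FPS1 (1.33) and the pumps SNQ2 (0.80) and YOR1 (0.88) were called higher as well. The count of 8 was 5 without untreated array 1, 2 or 3 or t-BOOH array 2 or 4, and the PDR12 call was lost without untreated array 1, 2 or 3 or t-BOOH array 2 or 3.

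Of 31 iron genes 5 were called higher and 6 lower, shares of 16.1% and 19.4% that lie near the 17.6% and 15.1% of all genes. FET3, the ferroxidase of iron uptake, was 15.02, 15.33, 15.08 and 15.03 untreated and 12.63, 12.95, 13.87 and 13.24 after t-BOOH (-1.94, SE 0.27, adjusted p = 7.31e-04), and its partner FTR1 was called at -1.0. FIT2, a cell wall protein of iron uptake, was 15.39, 15.57, 15.53 and 14.25 untreated and 11.86, 13.49, 14.19 and 13.39 after t-BOOH. The lowest untreated level, on array 4, was just above the highest t-BOOH level, on array 3, and the call (-1.96, SE 0.49, adjusted p = 0.0144) was lost without untreated array 1 or 2, where the change closest to 0 was -1.38. The biotin synthase BIO2, which holds iron-sulfur clusters, went from 10.45 ± 0.36 to 9.09 ± 0.54 (-1.35, SE 0.28). YAH1 (1.06), ARH1 (0.69) and ISA2 (0.65), of iron-sulfur cluster assembly, and the reductases FRE3 (0.96) and FRE8 (0.96) were called higher. The higher calls were 2 without untreated array 1, 2 or 3 or t-BOOH array 2 or 4, and the lower calls were 3 without untreated array 1 or 2 and 4 without untreated array 3 or t-BOOH array 2 or 4.

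Mating genes included a receptor with an 18.3-fold rise. STE3 (KLLA0A06534g), the receptor for the a-factor pheromone in S. cerevisiae, had levels of 7.97, 7.83, 7.67 and 7.49 untreated and 12.67, 12.03, 11.45 and 11.56 after t-BOOH (4.19, SE 0.29, adjusted p = 2.64e-05). STE6, the exporter of a-factor, rose from 9.19 ± 0.19 to 11.37 ± 0.22 (2.18, SE 0.20, adjusted p = 8.17e-05), and STE2, the receptor for the other pheromone, was called at 1.32 (SE 0.32). SST2, which damps pheromone signalling, was 12.28, 12.30, 12.37 and 10.66 untreated and 9.43, 8.36, 10.48 and 10.45 after t-BOOH (-2.22, SE 0.50, adjusted p = 0.00817), with untreated array 4 just above t-BOOH arrays 3 and 4. Of the 29 mating genes 7 were called higher and 2 lower (24.1% and 6.9% against 17.6% and 15.1%), with 1 lower without untreated array 1 or 3 or t-BOOH array 4. The pheromone-induced FUS1 (0.04) and BAR1 (-0.36) were not called. The labels do not state the mating type of the culture.

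Of 34 stress signalling genes and regulators 10 were called higher and 2 lower, 29.4% and 5.9% against 17.6% and 15.1% (median 0.31). XBP1, a transcriptional repressor that acts under stress and starvation, went from 12.08 ± 0.33 to 13.58 ± 0.51 (1.5, SE 0.30, adjusted p = 0.00439). PDE2, the cyclic AMP phosphodiesterase, went from levels of 9.27 to 10.50 to levels of 7.64 to 8.87 (-1.73, SE 0.32, adjusted p = 0.00339). STE11, a kinase of the mating and osmotic pathways, was called at 1.25 (SE 0.33, adjusted p = 0.0181), which was lost without untreated array 2 or 3, where the lowest change was 0.89. The cell wall integrity kinases PKC1 (0.64), MKK1 (0.73) and SLT2 (0.75) were called higher, while HOG1 (0.15), SKN7 (0.12) and HSF1 (-0.20) were not called. The higher calls were 4 without untreated array 2, 5 without untreated array 1 or 3, and 6 without t-BOOH array 2 or 4. The lower calls were 1 without untreated array 1, 2 or 3 or t-BOOH array 2, 3 or 4.

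The largest rise of all was that of KLLA0C18931g, which has no symbol. Its levels were 9.59, 8.65, 9.42 and 8.07 untreated and 14.05, 15.29, 14.90 and 15.61 after t-BOOH, a 65.3-fold rise (log2 change 6.03, SE 0.41, adjusted p = 2.48e-05). SPO22 (KLLA0C09328g), a meiosis protein, was 7.29, 6.79, 7.41 and 7.40 untreated and 12.10, 11.11, 11.78 and 10.91 after t-BOOH, a 19.1-fold rise (4.25, SE 0.28, adjusted p = 2.48e-05). NGR1, an RNA-binding protein, rose from 10.07 ± 0.01 to 13.44 ± 0.27 (3.36, SE 0.19) and BOR1, a boron transporter, from 9.01 ± 0.23 to 12.34 ± 0.59 (3.33, SE 0.31). ARO5 (2.85, SE 0.21), ILT1 (2.63, SE 0.26) and LIH1 (2.60, SE 0.21), a lipase homologue, were also among the 12 highest genes with a symbol. The gene next to ARO5, KLLA0B00517g, rose 26.2-fold, from 7.35, 7.68, 7.07 and 8.55 to 12.59, 12.58, 11.74 and 12.58 (4.71, SE 0.31, adjusted p = 2.48e-05).

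A set of chromosome-end genes rose together. The outermost 3 genes of the chromosome ends include 7 with a coding length of 1524 and 5 with one of 1047 bases. Genes of equal length are likely copies, and the probes may not tell them apart, so the 12 are not 12 separate results. The 7 longer genes had log2 changes of 4.37 to 4.80, among them KLLA0E00133g (9.48, 8.72, 8.56 and 11.14 untreated and 14.44, 14.01, 13.85 and 14.77 after t-BOOH), KLLA0F00154g and KLLA0D00143g. On untreated array 4 all 7 lay at 11.08 to 11.37, above the 8.56 to 9.89 of the other untreated arrays and below the 13.57 to 15.11 of the t-BOOH arrays. The 5 shorter genes had changes of 3.58 to 3.83, from untreated means of 11.21 to 11.37, with no such gap. The 5 genes of coding length 219 at the ends had changes of -0.92 to -0.56, 3 of them called lower (15.1% of all genes). Other genes at the ends varied. KLLA0C19547g, of coding length 1002, rose by 3.67, and by 3.78 after arsenite. KLLA0E25081g (1.47) was called higher, and KLLA0C00154g (-1.43) and KLLA0D19987g (-1.37) were called lower. Among those not called were KLLA0A12067g (0.0) and KLLA0C19437g (-0.04).

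The lowest gene of all was KLLA0E09021g, which has no symbol. It had levels of 12.22, 14.35, 12.02 and 10.19 untreated and 7.64, 7.33, 6.90 and 7.49 after t-BOOH (-4.85, SE 0.65, adjusted p = 5.53e-04). Its untreated levels spanned over 4 log2 units and still lay above all t-BOOH levels. ATO3 (KLLA0E02905g), an ammonium exporter, was 13.96, 14.92, 13.90 and 13.99 untreated and 9.26, 10.02, 9.94 and 9.92 after t-BOOH, a 21.2-fold fall (-4.41, SE 0.29, adjusted p = 2.48e-05). KLLA0F19371g went from 15.87 ± 0.41 to 11.61 ± 0.25 (-4.26, SE 0.26), KLLA0C15741g from 12.93 ± 0.61 to 8.85 ± 0.39 (-4.07, SE 0.33) and KLLA0F26818g from 14.17 ± 0.62 to 10.11 ± 0.58 (-4.06, SE 0.38). PTR2, the importer of small peptides, fell from 15.22 ± 0.38 to 11.94 ± 0.41 (-3.29, SE 0.28), and TOS6 from 13.36 ± 0.64 to 9.93 ± 0.21 (-3.43, SE 0.31).

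The response was set against that to arsenite, in the wild type and directly between the t-BOOH and arsenite channels. Of 5048 genes tested 1350 (26.7%) were higher and 1154 (22.9%) lower after t-BOOH than after arsenite. The arsenite arrays varied less among themselves, with a residual spread of 0.185 against 0.486 for t-BOOH and 0.401 for untreated arrays (root mean square, log2). Arsenite against untreated, which shares the untreated channels with the t-BOOH comparison, had 1580 (31.2%) genes called of 5057, 811 higher and 769 lower. The higher and lower counts were 447 and 320 without arsenite array 1, 523 and 435 without array 2 and 521 and 396 without array 3, and were 1137 and 1203 without untreated array 4.

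Of the peroxide genes, SRX1, CCP1, GPX2 and CTA1 had close values under both stresses. The arsenite changes were 3.14, 2.62, 1.60 and 1.23, and the direct differences of t-BOOH minus arsenite were 0.37 (adjusted p = 0.19), 0.18 (0.571), 0.33 (0.277) and -0.18 (0.481), none called. CTT1, AHP1 and PRX1 were called in the direct test. CTT1 had 0.05 after arsenite and a direct difference of 1.36 (adjusted p = 3.00e-04). AHP1 had -0.16 after arsenite and a difference of 0.46 (adjusted p = 0.0302). PRX1 went the other way, with 0.98 after arsenite and a difference of -0.65 (adjusted p = 0.0165). ZTA1 had 2.31 after arsenite (difference 0.12, adjusted p = 0.755) and KLLA0C18931g 5.97 (difference 0.06, adjusted p = 0.87). ARR2 and CUZ1 were higher after arsenite than after t-BOOH, with arsenite changes of 3.79 and 3.91 and differences of -1.88 (adjusted p = 8.96e-05) and -1.55 (0.00215).

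The 5 highest and 5 lowest genes of the direct test, among those called against untreated cells without overlap, are given with their arsenite change, the direct difference and its adjusted p. KLLA0B00517g (0.05, 4.66, 3.69e-06), KLLA0C18711g (1.03, 3.69, 6.26e-05), KLLA0E00133g (1.17, 3.63, 5.94e-05), KLLA0F00154g (1.15, 3.59, 4.17e-05) and KLLA0D00143g (1.17, 3.55, 5.05e-05) were the highest. KLLA0E09021g (0.18, -5.04, 1.08e-05), KLLA0C15741g (0.59, -4.67, 3.69e-06), KLLA0F26818g (0.18, -4.24, 1.47e-05), KLLA0F19371g (-0.26, -3.99, 3.69e-06) and ATO3 (-0.42, -3.99, 1.47e-05) were the lowest. Of the genes with a symbol described above, STE3 (0.84, 3.35, 4.65e-05), SWE1 (0.06, 3.18, 6.37e-06) and ARO5 (-0.21, 3.06, 6.37e-06) were also higher after t-BOOH than after arsenite, and ACS1 (0.25, -3.88, 4.03e-05) was lower. In ribosome biogenesis 129 of 153 genes were lower after t-BOOH than after arsenite and none higher (median difference -1.55), while the arsenite median against untreated was -0.53. In ribosomal proteins 53 of 58 were higher after t-BOOH than after arsenite and none lower (median difference 1.23), with an arsenite median of -0.68. For chaperones 24 of 40 were lower after t-BOOH than after arsenite and 2 higher, with a median of 0.79 in arsenite against untreated. For mitochondrial ribosome genes 38 of 72 were lower after t-BOOH than after arsenite, and for amino acid synthesis 31 of 55 were higher and 6 lower. These counts are to be read against all genes, of which 26.7% were higher and 22.9% lower in this test. The lists given here are only a part of those examined. Slide separates the t-BOOH from the arsenite arrays as it does from the untreated ones.

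**Figure D5:**
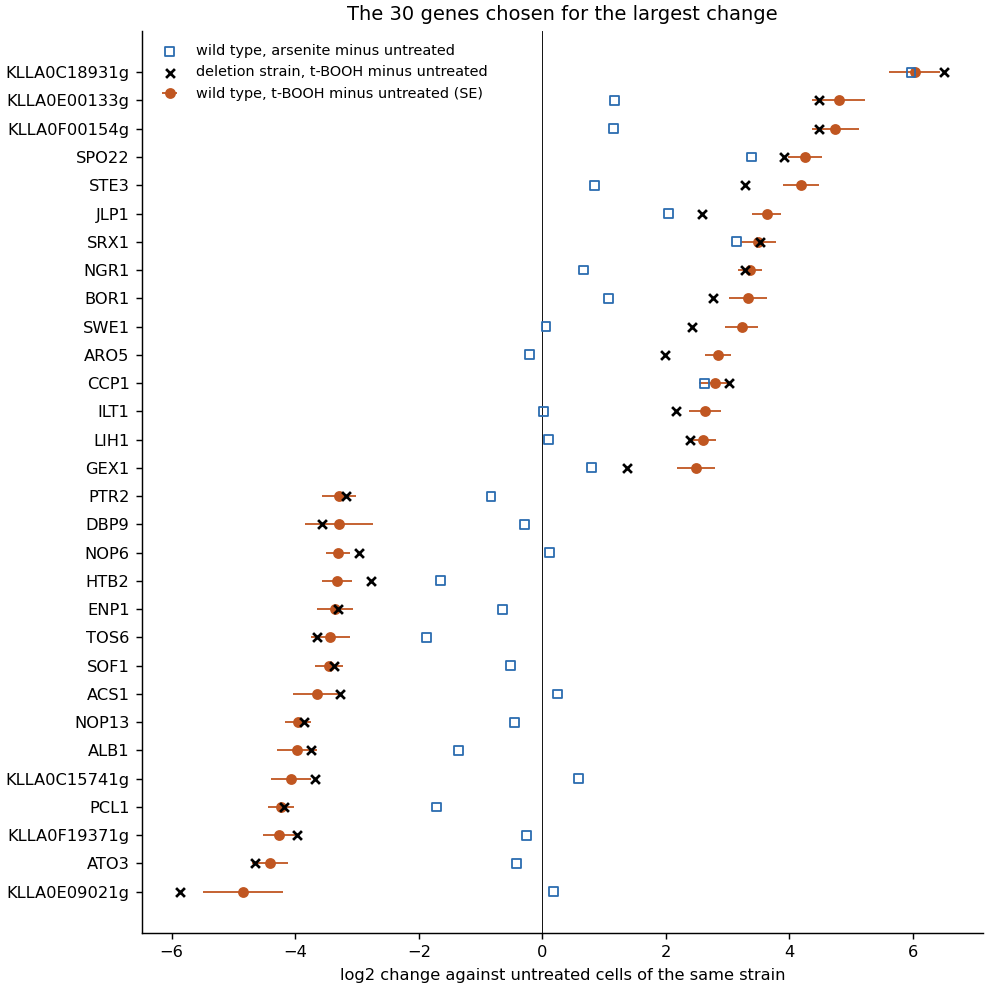
Log2 change of 15 higher and 15 lower genes in the wild type after t-BOOH (orange, bar SE), against untreated cells. Beside it are the wild type after arsenite (blue square) and the deletion strain after t-BOOH (cross), also against untreated cells. The genes changed most among called genes without overlap of the groups, ranked separately with and without a symbol. Few without a symbol were taken, so some genes with larger changes, such as KLLA0B00517g, are not shown. KLLA0C18931g, SPO22, SRX1 and CCP1 have arsenite values of 2.62 or more, while ATO3, ACS1 and SWE1 have arsenite values between -0.42 and 0.25.

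The deletion strain, read from the other channel of the same 8 arrays, gave changes beside those of the wild type of 3.53 for SRX1, 3.03 for CCP1, 6.51 for KLLA0C18931g, -3.86 for NOP13 and -4.65 for ATO3. Other named genes lay further apart between the strains. Deletion strain changes were 1.37 for GEX1, 1.06 for RSB1 and 2.59 for JLP1, against 2.49, 2.23 and 3.63 in the wild type. In the other direction, CUZ1 had 3.65 against 2.35 and NAS2 had 2.73 against 1.82. The list medians in the deletion strain were -1.94 for ribosome biogenesis, 0.05 for ribosomal proteins and 0.45 for chaperones. Whether the response differs between strains was tested on the within-array ratios. No gene of 5059 was called (0.0%, limma), and 936 had an unadjusted p under 0.05. With the authors' deposited table of log2 values in place of the ratios computed here the count was also 0, with 944 at an unadjusted p under 0.05. Without t-BOOH array 3 the count was 714, of which 309 were higher and 405 lower in the deletion strain's response. Leaving out any other single array of the 8 gave 0. From the ratios of all 12 arrays, t-BOOH array 3 among them, 141 genes were called. The count of 0 thus depended on which arrays were fitted. In the main fit GEX1 lay just above the threshold, with a strain difference of -1.12 (limma adjusted p = 0.0503).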

How the data were processed

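Total RNA of both strains was labelled with Cy3 and Cy5 and hybridised to 2-colour Agilent arrays, per the labels' protocols. The deposited intensity values, spot medians with local background, came from Feature Extraction 10.7.3.1, per the file headers. The authors' deposited log2 table was used only for the strain difference. In limma 3.58.1 (R 4.3.3), median signals were background-corrected (normexp, offset 50), loess-normalized within arrays and Aquantile-normalized over all 12 arrays, and spots of a gene were averaged. A gene was tested when its probe was well above background in the wild-type channel on at least 4 of 8 arrays, which left out 22 of 5081 genes. No spot was saturated. The 8 channels were fitted with group and dye terms (5 residual degrees of freedom), with Benjamini-Hochberg adjustment over all 5059 genes and a threshold of 0.05. The scripts were tested on simulated data.

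Members and the 26 gene lists were chosen with earlier results of these data known. Genes named were the called genes without overlap of the groups that were the 12 highest and 12 lowest with a symbol and the 3 highest and 3 lowest without one, in each list the 3 that changed most (5 for the redox lists), the 5 highest and 5 lowest in the difference from arsenite, all peroxide genes and ARR1. Of these, 1 gene is not reported here. Symbols came from RefSeq (ASM251v1), which matched 5069 identifiers and gave 3955 symbols. Promoter sequences were not analysed here.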

Additional observations from a re-analysis of the deposited data

Results flagged for a closer look

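Among the 104 genes named, each group of 4 arrays was examined for 1 level far from the other levels (gap over range above 0.829, Dixon's critical value). Of 208 gene and group pairs 25 had such a level, where chance gives about 1 in 20. Untreated array 4 held 10 of them, t-BOOH array 1 held 7 and t-BOOH array 3 held 5. The causes were not tested. Levels are log2 and the range in brackets is that of the other 3 arrays of the group. Levels on t-BOOH array 1 were 9.26 for ATO3 (9.92 to 10.02), 13.98 for SOL1 (13.61 to 13.63), 11.68 for TRP4 (11.11 to 11.20) and 10.56 for INP1 (9.82 to 9.95). Levels on t-BOOH array 1 were 8.87 for PDE2 (7.64 to 7.78), 11.69 for STE6 (11.22 to 11.29) and 9.24 for KLLA0F26818g (10.39 to 10.42). Levels on t-BOOH array 3 were 11.68 for ATG14 (12.22 to 12.31), 13.85 for QCR2 (13.20 to 13.29), 14.23 for RSB1 (14.78 to 14.84) and 12.21 for ERG1 (10.73 to 10.79). On t-BOOH array 3 the level was 11.74 for KLLA0B00517g (12.58 to 12.59). On t-BOOH array 4 the level was 11.52 for QCR9 (12.21 to 12.34). On untreated array 2 the level was 14.92 for ATO3 (13.90 to 13.99). On untreated array 3 the level was 15.19 for TPO1 (14.86 to 14.91). Levels on untreated array 4 were 10.68 for GEX1 (11.26 to 11.31), 11.62 for DBP9 (12.63 to 12.70), 12.20 for ECM4 (13.95 to 14.29) and 11.68 for RSM22 (11.81 to 11.83). Levels on untreated array 4 were 13.33 for MRPL20 (12.63 to 12.74), 14.25 for FIT2 (15.39 to 15.57), 14.20 for TYS1 (13.49 to 13.54) and 14.78 for ERG1 (12.59 to 12.95). Levels on untreated array 4 were 9.47 for INP1 (8.34 to 8.51) and 10.66 for SST2 (12.28 to 12.37). Of these, the change of ECM4 was 1.03 and that of ERG1 was -1.27 without untreated array 4 and t-BOOH array 1, against 1.63 and -2.19 with all arrays.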

How the results depend on the processing

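All 1657 called genes kept their direction under all 22 alternatives. For the 1488 of them whose groups did not overlap, leaving out arrays could not reverse the direction. The kept direction is therefore no independent check. The count of 1657 calls was 501 in the Cy3 channels alone, 2605 without untreated array 4 and t-BOOH array 1, and 1088 with a 2-fold minimum. Higher calls (892) were 1369 in the 24-channel fit, 236 in Cy3, 537 in Cy5 and 1420 without both arrays, and ran from 567 to 1073 when leaving out 1 array. Lower calls (765) were 265 in Cy3 and 1185 without both arrays. Of 2288 values of named genes under the alternatives, 117 lost and 9 gained a call, and none reversed. Most of these genes were chosen for groups that did not overlap. The strain difference had 141 calls from all 12 arrays and 0 to 714 when leaving out 1 array. Arsenite against untreated had 767 to 2340 when leaving out 1 array. Fitting the replicate number as a replicate block gave 1252 calls against untreated, 2301 against arsenite and 0 for the strain difference. Same-numbered arrays correlated at -0.262, 0.212, 0.053 and -0.412 in their deviations. The labels do not say what the replicate number pairs, and this was not tested. The number of arrays limits precision, and the median SE of a log2 change was 0.26.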
